A study of Mus musculus with 24 samples.

Results

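The 10 genes described here are C1qa, C1qb, C1qc, C3, Cx3cr1, P2ry12, Tmem119, Csf1r, Trem2 and Tyrobp, which are known for their roles in microglia and in the complement cascade. They were taken by name, with earlier results of these data known, and all 10 were among the 33902 gene symbols of the snRNA-seq count table. The nuclei were isolated from ventral hippocampus that had been dissected from adult males of the inbred strains C57BL/6J (B6) and DBA/2J (D2), aged 10 to 16 weeks and given no treatment that the labels name, with 2 snRNA-seq and 2 snATAC-seq libraries per strain and tissue of about 2 animals pooled in each library. The snRNA-seq nuclei were sorted with the neuronal antibody NeuN, so the share of each cell type was set in part by the sort, whereas the snATAC-seq nuclei were not. Reads of each strain were aligned to a reference carrying that strain's variants, and the effects of strain and of reference cannot be told apart. The libraries are called 2 and 3 in the count tables, and p-values measure the spread between these libraries only. Where a gene had counts in other cell types, fewer expressing nuclei and less RNA per nucleus cannot be told apart in summed counts.

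Microglia are the resident macrophages of the brain, survive on signals through the receptor encoded by Csf1r, and survey their surroundings with receptors such as the purinergic receptor P2ry12 and the fractalkine receptor Cx3cr1. Trem2 and its signalling adaptor Tyrobp form a lipid-sensing receptor complex, and Tmem119 encodes a transmembrane protein widely used as a microglial marker. C1qa, C1qb and C1qc encode the A, B and C chains of C1q, the recognition molecule that starts the classical complement pathway, and C3 is the central component on which the complement pathways converge. In the hippocampus, C1q and C3 are known as tags for synapses that microglia remove.

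Counts were summed by the authors over the nuclei of each cell type in each library. Cell types carry the authors' labels, in which Exc marks excitatory neurons named by region or marker gene, and Astro, ODC, OPC and VLMC are the non-neuronal clusters other than MGC. The cluster labelled MGC held 289 and 358 nuclei of B6 and 204 and 242 nuclei of D2, 3.99% of the 27377 nuclei in the 13 cell types used here, with 439262 to 744129 counts per library. Counts per MGC nucleus were 1780 and 2079 in B6 and 2153 and 2452 in D2. Siglech, Gpr34 and Sall1, which define microglia among brain cells, were all present, with 447, 678, 366 and 540 counts of Siglech in B6 library 2, B6 library 3, D2 library 2 and D2 library 3, and all 30 genes of a microglial list had counts in every library. Markers of other cells were also present, and the neuronal RNA Meg3 had 958, 1157, 426 and 800 counts in the same order of libraries. A list of 7 border macrophage genes summed to 348, 529, 569 and 357 counts per 1000000 counts (CPM) in the same order of libraries, and none of the 7 was at 0. The 8 neuronal markers summed to 2728 and 2348 CPM in B6 and to 1359 and 1928 CPM in D2, 5 astrocyte markers to 562 and 560 against 403 and 330 CPM, and 5 oligodendrocyte markers to 389 and 414 against 310 and 196 CPM. The summed neuronal, astrocyte and oligodendrocyte markers in MGC were thus lower in both D2 libraries than in both B6 libraries, and their part in the strain differences below was not tested.

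The genes of the 3 C1q chains lie next to each other on the minus strand of chromosome 4 (GRCm38, GENCODE vM21 annotation), with C1qb at chr4:136880129-136886187, C1qc at chr4:136889804-136893065 and C1qa at chr4:136895917-136898803. Up to 250 bases before the RefSeq transcription start are shown for C1qb, whose start lay under the peak with the highest mean CPM in MGC among those near the 10 genes, for C1qc, the C1q gene that differed between the strains, and for Trem2, whose start also lay under a peak. The sequences are from a set of RefSeq promoters (GRCm38.p6), from which entries for 6 of the 10 genes were used. They are written 5′ to 3′ on the strand of the gene, at chr4:136886201-136886450 (minus strand), chr4:136893066-136893164 (minus strand) and chr17:48346151-48346400 (plus strand). The RefSeq start of C1qc lies inside the GENCODE gene, so only the 99 bases outside the gene are shown for it and the 151 bases inside it are left out. Capitals mark a match, on either strand, to the PU.1 core GAGGAAGT or to the AP-1 motif TGANTCA, both bound by factors known in macrophages.
C1qb: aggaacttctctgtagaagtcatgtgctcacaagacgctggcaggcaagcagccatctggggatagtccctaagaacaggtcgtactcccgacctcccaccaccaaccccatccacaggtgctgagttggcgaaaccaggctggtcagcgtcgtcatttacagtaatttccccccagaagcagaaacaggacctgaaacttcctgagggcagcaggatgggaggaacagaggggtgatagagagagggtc
C1qc: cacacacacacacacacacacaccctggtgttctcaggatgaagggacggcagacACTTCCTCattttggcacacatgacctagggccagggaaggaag
Trem2: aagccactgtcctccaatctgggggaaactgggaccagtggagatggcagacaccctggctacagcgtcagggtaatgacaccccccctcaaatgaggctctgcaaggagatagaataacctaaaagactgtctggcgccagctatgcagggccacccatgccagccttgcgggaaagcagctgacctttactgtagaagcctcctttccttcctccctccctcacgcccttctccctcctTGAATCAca
The C1qc window held a PU.1 core in the opposite orientation starting at position -44 from the GENCODE start (-195 from the RefSeq start), and the Trem2 window held an AP-1 motif starting at position -9 from both starts. The C1qb window held neither. Among all 32851 windows of 250 bases in the set used, 2.44% held the PU.1 core and 6.75% the AP-1 motif. Of the 6 windows used for the genes studied here, 1 held each. The 2 motifs did not overlap in these windows, and a match is a description of the letters only.

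Across cell types, 8 of the 10 genes were highest in MGC by a wide margin, P2ry12 was highest there by a smaller one, and C3 was close to absent in all 13 cell types used. Since the clusters were made from these counts, the levels are a description and no test was run between cell types. Levels in this comparison are plain CPM, computed over all counts of a cell type in a library, and the 48 columns outside MGC are 12 cell types in 4 libraries.

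The C1q genes were measured in MGC at 1029 to 1404 CPM for C1qa, 458 to 778 CPM for C1qb and 389 to 834 CPM for C1qc. The next cell type for C1qa was Astro, at a mean of 9.37 CPM, and MGC exceeded it 124-fold. For C1qb and C1qc the next was VLMC, at means of 6.72 and 4.19 CPM, which MGC exceeded 97.2-fold and 143-fold. Below MGC, neighbouring cell types in the order of levels overlapped in their library ranges for all 3 genes, down to a mean of 2.68 CPM of C1qa in Exc-CA3. Of the counts in these 13 cell types, MGC held 76.9% of C1qa counts, 78.1% of C1qb counts and 83.2% of C1qc counts.

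Csf1r, at chr18:61100598-61132149 on the plus strand, stood at 1163 to 1234 CPM in MGC and at no more than 9.63 CPM in any other column. Trem2 (chr17:48346401-48354147, plus strand) stood at 300 to 400 CPM in MGC and reached 6.42 CPM elsewhere, and Tyrobp (chr7:30413760-30417585, plus strand) stood at 175 to 273 CPM in MGC and reached 9.63 CPM elsewhere. The highest mean outside MGC was in VLMC for each of these genes. VLMC columns were shallow, and its 4 libraries held 225029 to 593447 counts. Tmem119 (chr5:113793729-113800516, minus strand) differed from them in one respect. It stood at 123 to 220 CPM in MGC, and in VLMC at a mean of 15.7 CPM, with the lowest VLMC library at 3.37 CPM and the highest at 26.7 CPM. The VLMC range of Tmem119 overlapped neither that of MGC nor that of ODC, the next cell type, at a mean of 1.82 CPM. The VLMC values rest on 6 and 5 counts in B6 and 2 and 7 in D2. The highest ODC library was at 3.10 CPM, so its gap to the lowest VLMC library is within counting error. Over all libraries together, VLMC held 20 counts (12.4 CPM) and ODC held 15 counts (2.03 CPM), a difference that was not tested.

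Cx3cr1 was measured in MGC at 1216 to 1387 CPM, and MGC held only 38.4% of its counts. In each of the other 12 cell types its mean lay between 23.3 CPM, in Exc-Gpc6, and 33.5 CPM, in Exc-Cdh12, and none of the 48 columns was at 0. Neighbours in the order of these 12 cell types overlapped throughout, although types farther apart in it need not overlap, such as Exc-DG (22.1 to 26.2 CPM) and ODC (28.8 to 38.0 CPM). Its annotated span, chr9:119901616-120069879 on the minus strand, also covers Gorasp1, Csrnp1 and Xirp1 on the same strand, and Wdr48 and Ttc21a on the other. How reads in shared intervals were divided between these genes is not given in the sources used here, so counts of Cx3cr1 are uncertain in that respect.

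**Figure D1:**
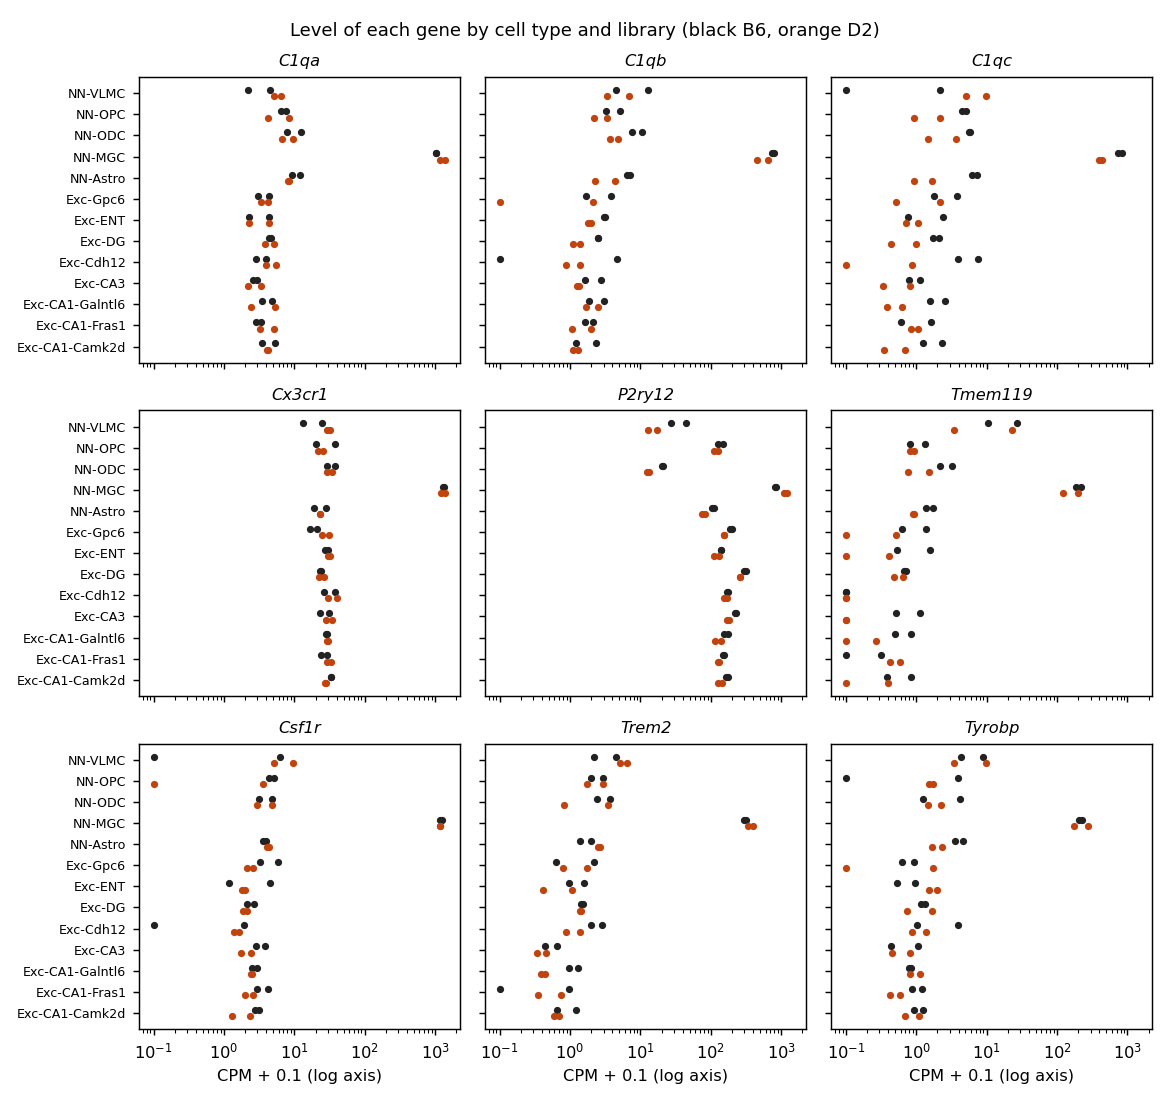
Plain CPM of 9 genes, on a log axis with a small constant added so that 0 can be drawn, in 13 cell types, with 1 point per library (black B6, orange D2). MGC stands apart in every panel, and P2ry12 is also high in excitatory cell types. Tmem119 has its next highest mean in VLMC, as do C1qb, C1qc, Csf1r, Trem2 and Tyrobp. C3, with 10 counts over these cell types, is left out.

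P2ry12 had the broadest pattern. It stood at 815 to 1212 CPM in MGC, but MGC held only 6.88% of its 32760 counts over the 13 cell types, and the excitatory neurons, which are many and deeply covered, held most of the rest. Exc-DG came next at a mean of 282 CPM, 3.53-fold below MGC, and its range of 257 to 312 CPM overlapped neither MGC nor Exc-CA3, which followed at 200 CPM. From Exc-CA3 down to OPC, at 129 CPM, neighbours overlapped. Astro followed at 93.2 CPM, below OPC in every library though overlapping Exc-ENT slightly, and VLMC and ODC were lowest at 25.3 and 16.5 CPM. P2ry12 (chr3:59216272-59262871, minus strand) lies wholly within Med12l (chr3:59005825-59318682, plus strand), a gene for a Mediator subunit, and Med12l was the gene whose pattern was most like that of P2ry12, with a Pearson r of 0.96 over 52 columns on log2(CPM + 1). The strand setting of the counting is not given in the sources used here, and without it reads of P2ry12 and of Med12l in the shared interval cannot be told apart.

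The most similar gene by the same measure was found for each of the other members. Siglech was nearest to C1qb (r = 0.976) and to Trem2 (r = 0.965), Cd300c2 to C1qc (r = 0.942) and Csf1r (r = 0.970), Clec4a3 to Cx3cr1 (r = 0.981), Casp8 to Tmem119 (r = 0.972), Ly86 to Tyrobp (r = 0.957) and the predicted gene Gm30329 to C1qa (r = 0.976). For C3, with its few counts, the nearest was Gm17324 at only r = 0.591. Among the members themselves, r lay between 0.822 and 0.959 for pairs without C3 and P2ry12, and P2ry12 correlated with those 8 genes at 0.263 to 0.562. The columns share 4 libraries and differ in depth, and the MGC columns lie far above the rest for these genes.

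C3 (chr17:57203970-57228136, minus strand) had 0 counts in all 4 MGC libraries, which allows a level of up to 1.31 CPM over the 4 libraries together. It had 10 counts over the 13 cell types, of which 4 were in Exc-DG, 3 in Exc-CA3 and 1 each in Exc-CA1-Galntl6, ODC and OPC, and 39 of the 48 columns outside MGC were at 0. Astro also had 0, which allows up to 0.221 CPM. No comparison of C3 between strains could be made at this depth, and these limits cover counting error only.

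Whether the members differed between the strains was tested in MGC with edgeR's quasi-likelihood test, as D2 minus B6. Strain values are given as CPM scaled by the trimmed mean of M values (TMM) over the genes tested, first for the B6 libraries and then for the D2 libraries. The share of all genes whose strains did not overlap was not computed, so statements on overlap between strains are descriptions only. Of the 9 members that passed the filter on low counts, C1qc was lower and P2ry12 was higher in D2 at an adjusted p under 0.05, and the other 7 did not pass. That is 2 of 9, where 10.4% of the 9008 genes tested passed, or 8.21% of the 8796 with counts in both strains, in which 4.67% were lower in D2. The median log2 fold change of the 9 was 0.06, against 0.01 over all genes tested.

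C1qc, the C chain, was at 873 and 766 CPM in B6 and at 420 and 470 CPM in D2. Both D2 libraries lay below both B6 libraries with a wide gap. The log2 fold change was -0.87 ± 0.13 (SE, 2 libraries per strain, edgeR adjusted p = 0.000157), and counts per nucleus were 1.48 and 1.54 in B6 against 0.838 and 1.07 in D2. C1qb, the B chain, was at 814 and 763 CPM in B6 and at 493 and 689 CPM in D2, which did not overlap, with a log2 fold change of -0.40 ± 0.14 that did not pass (edgeR adjusted p = 0.0942). C1qa, the A chain, had the opposite sign. It was at 1087 and 1061 CPM in B6 and at 1251 and 1519 CPM in D2, again with no overlap, and its log2 fold change of 0.37 ± 0.12 did not pass (edgeR adjusted p = 0.0580). C1qa and C1qb are the members whose call depended on the libraries and settings used: C1qa passed without B6 library 2 (adjusted p = 0.0293) and without D2 library 2 (adjusted p = 0.0116), and C1qb passed without B6 library 3 (adjusted p = 0.0447) and without D2 library 3 (adjusted p = 0.00442), all with edgeR.

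P2ry12 was at 853 and 874 CPM in B6 and at 1187 and 1311 CPM in D2, so that the strains did not overlap. Its log2 fold change was 0.53 ± 0.11 (edgeR adjusted p = 0.00416), and counts per nucleus were 1.45 and 1.76 in B6 against 2.37 and 2.97 in D2. Med12l, which contains it, was at 674 and 839 CPM in B6 and at 1087 and 1008 CPM in D2, with a log2 fold change of 0.46 ± 0.13 (edgeR adjusted p = 0.0258).

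The remaining members in MGC did not pass, and their values are given without a direction. Cx3cr1 was at 1350 and 1355 CPM in B6 and at 1310 and 1500 CPM in D2, with a log2 fold change of 0.06 ± 0.11. Csf1r was at 1217 and 1271 CPM in B6 and at 1254 and 1287 CPM in D2, with a log2 fold change of 0.03 ± 0.11, the smallest of the 9. The strains overlapped for both receptors. Trem2 was at 330 and 309 CPM in B6 and at 358 and 432 CPM in D2, which did not overlap, with a log2 fold change of 0.32 ± 0.14 (edgeR adjusted p = 0.200). Its adaptor Tyrobp was at 218 and 230 CPM in B6 and at 189 and 295 CPM in D2 (log2 fold change 0.13 ± 0.18), and Tmem119 was at 230 and 190 CPM in B6 and at 132 and 215 CPM in D2 (log2 fold change -0.23 ± 0.20). For Tyrobp and Tmem119 the D2 libraries differed from each other by more than the strain means did.

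**Figure D2:**
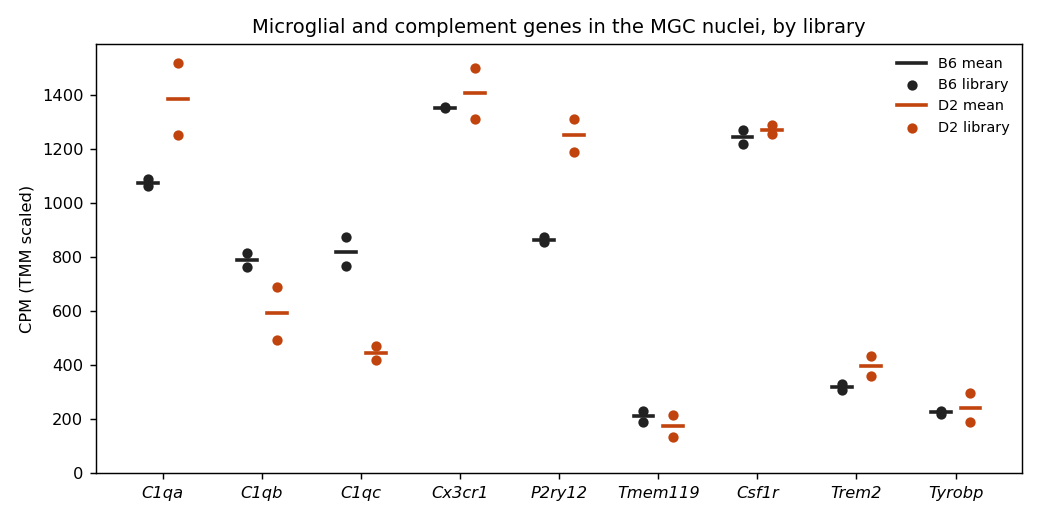
TMM-scaled CPM of 9 genes in MGC by library (points) with the mean of the 2 libraries of a strain (bars), black for B6 and orange for D2. C1qc is lower and P2ry12 higher in both D2 libraries, whereas Cx3cr1 and Csf1r overlap between the strains.

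The make-up of the C1q counts gave the same contrast within a library, where depth cancels. In MGC, C1qc was 31.5% (95% exact binomial interval 29.0 to 34.0) and 29.6% (27.5 to 31.7) of the counts over the 3 chains in B6, and 19.4% (16.8 to 22.2) and 17.6% (15.7 to 19.6) in D2. The share of C1qa was 39.2% and 41.0% in B6 and 57.8% and 56.7% in D2, and that of C1qb was 29.3% and 29.5% in B6 and 22.8% and 25.7% in D2. The intervals, which cover counting error only, did not overlap between the strains for C1qa or C1qc. In the 8 excitatory cell types summed per library, C1qc was 20.9% and 23.1% of 306 and 316 counts in B6, and 9.64% and 10.9% of 197 and 192 counts in D2. C1qa was 48.0% and 47.5% there in B6 and 66.0% and 65.1% in D2. The share of C1qc was thus lower in D2 in both MGC and excitatory cells, and within each library it was lower in excitatory cells than in MGC, though in library 3 of each strain the intervals of the 2 overlapped.

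**Figure D3:**
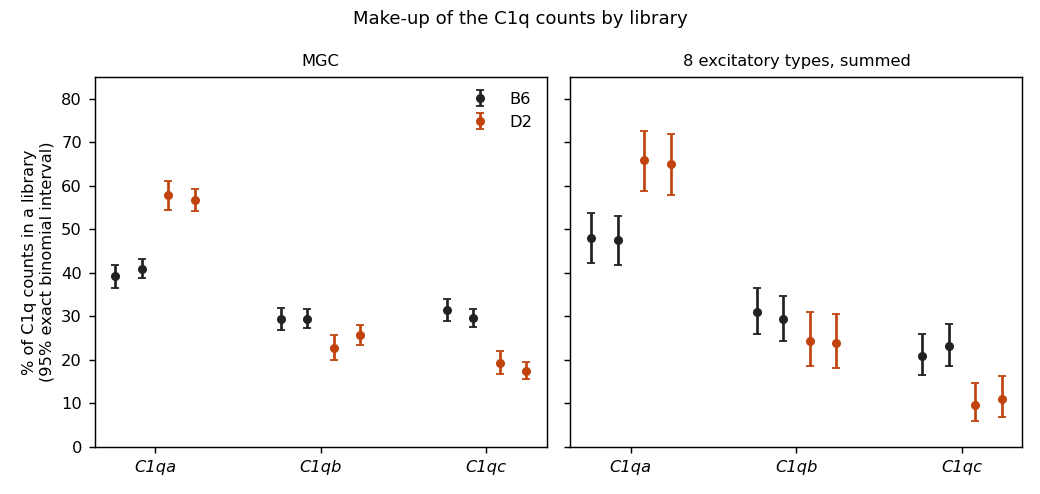
Share of C1qa, C1qb and C1qc in the C1q counts of each library, in percent with 95% exact binomial intervals, in MGC (left) and in the 8 excitatory cell types summed (right), black for B6 and orange for D2. C1qc takes a smaller and C1qa a larger share in D2 in both panels.

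Outside MGC, few members passed the filter in each cell type, between 2 and 8 of the 10. Over the 12 cell types, 11 pairs of member and cell type passed at an adjusted p under 0.05, all lower in D2. P2ry12 was tested in 12 cell types and accounted for 7 of them (Exc-CA1-Fras1, Exc-CA1-Galntl6, Exc-CA3, Exc-DG, Exc-ENT, Exc-Gpc6 and Astro). C1qc accounted for 3 of 3 tested (Exc-CA1-Galntl6, Exc-DG and Astro) and C1qb for 1 of 5 tested (Exc-DG). In its 3 cell types C1qc had 11 to 23 counts per B6 library and 2 to 7 per D2 library. It thus passed the filter through B6 alone, which favours a call lower in D2. C1qb in Exc-DG had 25 and 27 counts in B6 and 9 and 10 in D2. Its D2 libraries alone would not have passed the filter, which again favours a call lower in D2. The cell types with a called member had many strain differences in all. Called were 1 of 4 members tested and 28.5% of genes in Exc-CA1-Fras1, 2 of 6 and 35% in Exc-CA1-Galntl6, 1 of 4 and 32.1% in Exc-CA3, and 3 of 8 and 36% in Exc-DG. They were 1 of 4 and 28% in Exc-ENT, 1 of 2 and 19.7% in Exc-Gpc6, and 2 of 7 and 26.2% in Astro. In the other cell types 2 to 4 members were tested and none was called. Genes called there were 2894 of 14925 in Exc-CA1-Camk2d, 867 of 10271 in Exc-Cdh12, 2223 of 11670 in ODC, 1971 of 12163 in OPC and 617 of 7840 in VLMC. With DESeq2, 3 pairs passed, all of them P2ry12, in Exc-CA1-Galntl6, Exc-CA3 and Exc-DG.

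P2ry12 was tested in all 12 of these cell types, and its log2 fold change was negative in each, from -0.11 in Exc-Cdh12 to -1.01 in VLMC. In Exc-DG, the granule cells of the dentate gyrus, it averaged 309 ± 12.1 CPM for B6 and 257 ± 1.97 CPM for D2 (SD, n = 2 libraries), with a log2 fold change of -0.26 ± 0.07 (SE, edgeR adjusted p = 0.00654). The strains did not overlap in any of the 12 cell types, which come from the same 4 libraries and are not independent replicates. The share of all genes without overlap in these cell types was not computed. C1qc in Exc-DG averaged 1.84 ± 0.269 CPM for B6 and 0.604 ± 0.380 CPM for D2, with a log2 fold change of -1.63 ± 0.45 (edgeR adjusted p = 0.0111), and in Astro it was at 6.39 ± 0.797 and 1.27 ± 0.553 CPM, a log2 fold change of -2.29 ± 0.46 (edgeR adjusted p = 0.000124). These levels are a few CPM, and whether they came from the named cells or from free RNA was not tested. Cx3cr1, also tested in all 12, passed in none, with log2 fold changes from -0.31 to 0.63.

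**Figure D4:**
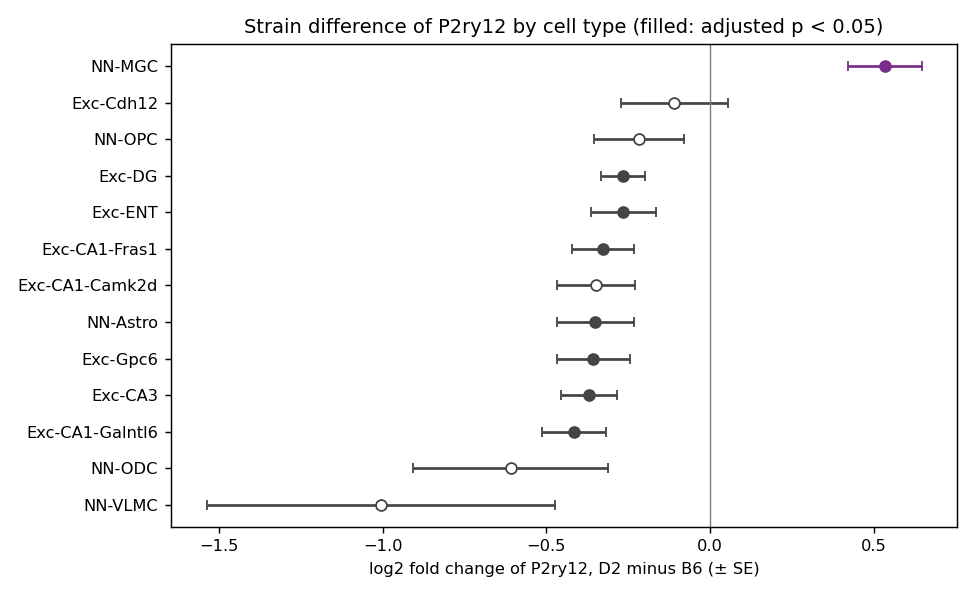
Log2 fold change of P2ry12, D2 minus B6, with its standard error (bars) in each of 13 cell types; filled symbols passed an adjusted p under 0.05 in edgeR and MGC is in purple. P2ry12 is higher in D2 in MGC, at 0.53, and its estimate is negative in the other 12 cell types.

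Whether a strain difference itself differed between MGC and the excitatory neurons was tested in 1 model over the MGC column and the summed excitatory column of each library. In the excitatory sum alone, C1qb, C1qc, P2ry12, Tmem119 and Csf1r were lower in D2, 5 of the 9 members tested, where 48.2% of the 23714 genes tested differed. Tmem119 was at only 0.534 and 0.680 CPM in B6 and 0.212 and 0.228 CPM in D2 in that sum. Tmem119 thus passed the filter through B6 alone, which favours a call lower in D2. P2ry12 was at 218 and 210 CPM in B6 and at 171 and 164 CPM in D2 in that sum, with a log2 fold change of -0.35 ± 0.06 (edgeR adjusted p = 0.000143). The difference between the strain differences, MGC minus excitatory, was 0.92 ± 0.18 on the log2 scale for P2ry12 (edgeR adjusted p = 7.88e-05), 1 of 9 members, where 1.83% of 22083 genes passed. Without B6 library 2 or B6 library 3 the adjusted p became 0.409 and 0.259, with differences of 0.84 and 0.98, and without D2 library 2 or 3 it was 0.00196 and 0.0279. For Med12l the difference was 0.86 ± 0.18 (edgeR adjusted p = 0.000330), and it was at 217 and 221 CPM in B6 and at 176 and 167 CPM in D2 in the excitatory sum. P2ry13, a related receptor gene on the microglial list, had a difference of 1.33 ± 0.35 (edgeR adjusted p = 0.0102), whereas P2ry14 had one of 0.10 ± 0.39. In the excitatory sum P2ry13 was at only 2.87 and 2.54 CPM in B6 and 1.51 and 1.27 CPM in D2. Its log2 fold change in MGC, 0.34 ± 0.17, did not pass (edgeR adjusted p = 0.238). P2ry13 and P2ry14 were chosen as relatives of P2ry12 after its values were seen. Whether their reads are shared with Med12l was not tested.

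The difference did not pass for the other 8 members tested. It was 0.71 ± 0.29 for C1qc (edgeR adjusted p = 0.331), which was at 1.63 and 1.84 CPM in B6 and at 0.503 and 0.684 CPM in D2 in the excitatory sum, 0.90 ± 0.32 for Trem2 (adjusted p = 0.146) and 0.60 ± 0.24 for Csf1r (adjusted p = 0.305). It was 1.19 ± 0.55 for Tmem119 (adjusted p = 0.446), 0.40 ± 0.22 for C1qa, 0.39 ± 0.24 for C1qb, 0.12 ± 0.37 for Tyrobp and 0.04 ± 0.18 for Cx3cr1.

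**Figure D5:**
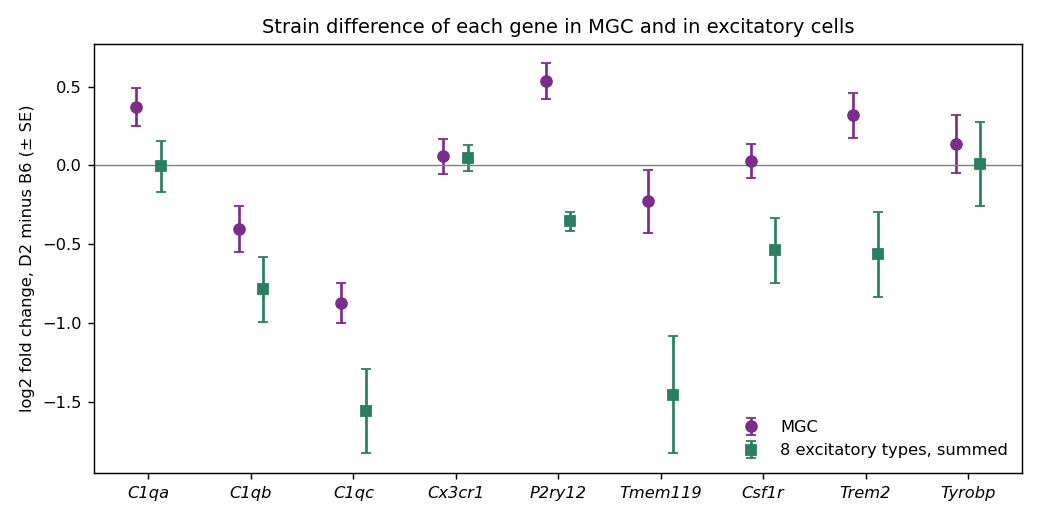
Log2 fold change, D2 minus B6, of 9 genes in MGC (circles) and in the 8 excitatory cell types summed (squares), with standard errors (bars). P2ry12 is the gene with opposite called directions, at 0.53 in MGC and -0.35 in excitatory cells.

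The other genes of the pathways were taken from lists by known function. All 30 other microglial genes were tested in MGC, of which 1 was higher and 4 were lower in D2, and the median log2 fold change was 0.03. Of all 9008 genes tested in MGC, 473 were higher and 461 were lower in D2, or 10.4% called. The same share is the background for the MGC lists that follow. Fcrls, an Fc receptor-like gene used as a microglial marker, was at 590 and 687 CPM in B6 and at 140 and 186 CPM in D2 (log2 fold change -1.96 ± 0.16, edgeR adjusted p = 2.88e-07). Itgam, the alpha chain of complement receptor CR3, was at 446 and 485 CPM in B6 and at 199 and 173 CPM in D2 (log2 fold change -1.33 ± 0.15, edgeR adjusted p = 8.87e-06). Mertk, a receptor for the uptake of dying cells, was at 1677 and 1771 CPM in B6 and at 1146 and 891 CPM in D2 (log2 fold change -0.77 ± 0.12, edgeR adjusted p = 0.000394). Ly86, a partner of a Toll-like receptor relative, was the gene that was higher (log2 fold change 0.45 ± 0.11, edgeR adjusted p = 0.0119). The defining markers Siglech, Gpr34 and Sall1 did not pass, with log2 fold changes of 0.03, 0.21 and 0.24.

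Of 36 other genes of the complement pathway, 35 were among the gene symbols counted. In MGC 12 of them passed the filter, and their median log2 fold change was -0.51. Csmd3, one of the large membrane proteins related to complement regulators, was at 3833 and 4687 CPM in B6 and at 7927 and 6976 CPM in D2 (log2 fold change 0.81 ± 0.11, edgeR adjusted p = 9.23e-05). C5ar2, a receptor for the fragment C5a, was at 26.5 and 20.8 CPM in B6 and at 0 and 3.65 CPM in D2 (edgeR adjusted p = 0.00594). Its counts were 13 and 15 in B6 and 0 and 2 in D2. It thus passed the filter through B6 alone, which favours a call lower in D2. DESeq2 called 1 gene of this list, against 2 with edgeR. The other 10 did not pass, among them C3ar1, the receptor for the C3 fragment C3a, with a log2 fold change of -0.75 ± 0.38. Of 8 ligands of the receptors studied here, 5 were tested and 2 were higher in D2. Apoe, a lipid carrier bound by Trem2, was at 1875 and 1776 CPM in B6 and at 2434 and 2725 CPM in D2 (log2 fold change 0.50 ± 0.11, edgeR adjusted p = 0.00444), and Pros1, a ligand of Mertk, was at 269 and 235 CPM in B6 and at 405 and 388 CPM in D2 (log2 fold change 0.66 ± 0.14, edgeR adjusted p = 0.00516). Cx3cl1, the ligand of Cx3cr1, had 14, 20, 1 and 19 counts in B6 library 2, B6 library 3, D2 library 2 and D2 library 3, and Csf1 and Il34, the ligands of Csf1r, had 4 to 12 counts in each.

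Of 14 genes of activated microglia, 3 were tested with edgeR and 0 were called, as with DESeq2. Without B6 library 2, B6 library 3 or D2 library 3, edgeR called 2 of the list in each case, and with no filter beyond 1 count it called 4. Of the border macrophage genes, 5 were tested and 0 were called by edgeR or DESeq2. At an unadjusted p under 0.05 in edgeR, 0 of the former and 1 of the latter (Pf4) passed. D2 library 2 stood apart for the chemokines Ccl3 and Ccl4, which were not tested, with 35 and 66 counts against at most 3 in any other MGC library. In the same fit, the oligodendrocyte marker Mag had a positive log2 fold change of 0.73 ± 0.32 and did not pass (edgeR adjusted p = 0.193). Called lower in D2 were 3 of 6 neuronal markers tested (Snap25, Meg3 and Syt1), 2 of 4 oligodendrocyte markers, among them Mbp, and 1 of 4 astrocyte markers (Slc1a3). These calls were not stable: DESeq2 called 0 of all 3 lists, and edgeR called 0 of the neuronal list without D2 library 2 and 0 of the oligodendrocyte and astrocyte lists without D2 library 3. The 7 vascular and leptomeningeal genes gave 1 gene to test, which was not called with all libraries in the fit. Of 10 other leukocyte markers, 7 were among the gene symbols counted, with sums of 8.43 to 18.8 CPM, and none was tested. No gene of the 3 oligodendrocyte precursor markers was tested either.

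Chromatin accessibility at the members' starts was measured by snATAC-seq, in which the authors' counts per peak were made from sequenced fragments. The MGC cluster was small, with 142 nuclei in the 4 libraries. Within 2 kb of an annotated start, 9 peaks were found at 8 of the 10 genes, with none at C3 and Cx3cr1. The peak at C1qb, chr4:136886077-136886461, overlapped the start and covered the promoter window shown above. It held 20 and 24 counts for B6 and 17 and 11 for D2, at 30.9 to 69.3 plain CPM in MGC against 0.314 to 0.504 in the excitatory sum, a mean ratio of 103. The peak at Tmem119 (chr5:113799791-113800577) gave a ratio of 18.7, that at Trem2 (chr17:48345998-48347244) one of 9.09, and that 847 bases upstream of Tyrobp (chr7:30412712-30412913) one of 55.1. The ratios were lower at C1qc, whose peak lay 731 bases upstream (chr4:136893796-136894416, ratio 4.55), at P2ry12, whose peak lay 1410 bases inside the gene (chr3:59260558-59261461, ratio 4.73), and at C1qa, whose peak lay 239 bases inside it (chr4:136898161-136898564, ratio 6.68). Csf1r had a peak 1433 bases upstream (ratio 21.3) and one over its start with 5 counts in all (ratio 3.44).

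None of the 8 member peaks with at least 10 counts differed between the strains in MGC at an adjusted p under 0.05, where 51 of 35019 peaks, 0.146%, were called. None passed at an unadjusted p under 0.05 in edgeR, and DESeq2 also called 0. The peak at C1qc held 9 and 8 counts in B6 and 10 and 8 in D2 (log2 fold change 0.30 ± 0.58), and that at P2ry12 held 17 and 9 counts in B6 and 7 and 9 in D2 (log2 fold change -0.44 ± 0.53). The peak at Trem2 held 18 and 9 counts against 7 and 5 (log2 fold change -0.91 ± 0.57). The smallest change that could have been detected at these peaks was not estimated.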

How the data were processed

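Nuclei of ventral hippocampus were profiled with 10x Genomics snRNA-seq and snATAC-seq. Per the labels and the study's methods, the authors used Cell Ranger 6.0.2 (introns retained) and Cell Ranger ATAC 2.0.0 with mm10 for B6 and mm10 carrying D2 variants for D2, removed doublets, clustered in Seurat 4.0.5, and deposited raw counts summed per cell type and library. The annotation release is not given in the sources used here. Cell barcodes were not analysed here. Of the RNA columns, 16 (inhibitory and CR cell types), and of the ATAC columns, 24, were left out when columns were mapped to samples. For the columns used, too, strain and library number are known but not which labelled sample each is. The interaction was planned over excitatory and inhibitory cells and was run over excitatory cells only.

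Counts were tested with edgeR 4.0.16 (R 4.3.3): filterByExpr, TMM, quasi-likelihood F test, Benjamini-Hochberg adjustment over all features, threshold 0.05. Peaks needed 10 counts. SE is the log2 fold change divided by the square root of F. DESeq2 1.42.0, RLE, no filter, genes with counts in both strains, a library block and leaving out each library were the alternatives. Scripts were tested on simulated data. All members are named, from other lists at most 3 called genes per direction, and for likeness the nearest genes with at least 50 counts. The members and lists were chosen with earlier results of these data known. The 16 snmC-seq2 samples were not analysed here, and some genes of the lists are not reported here by name.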

Additional observations from a re-analysis of the deposited data

Results flagged for a closer look

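The strain difference of P2ry12 differed between MGC and the excitatory neurons by 0.92 on the log2 scale (edgeR adjusted p = 7.88e-05, interaction of cell group and strain), with both D2 libraries above both B6 libraries in MGC and below them in the excitatory sum. It was the 1 member of 9 for which this test passed. The call was lost without B6 library 2 (adjusted p = 0.409) or B6 library 3 (adjusted p = 0.259), while the difference stayed between 0.79 and 0.98 without any 1 library. Med12l, in which P2ry12 lies on the opposite strand, had a difference of 0.86, and the part of shared reads in either value was not tested.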

How the results depend on the processing

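In MGC, C1qc was lower and P2ry12 higher in D2 under all 9 alternatives, with log2 fold changes from -0.96 to -0.78 (largest edgeR or DESeq2 adjusted p = 0.000752) and from 0.46 to 0.62 (largest adjusted p = 0.0458). Members called in MGC numbered 2, 4 with no filter beyond 1 count (C1qa and C1qb added), and 3 without any 1 library. Genes called in MGC numbered 934, 406 with DESeq2, 1583 with no filter, and 761 to 908 without 1 library. Pairs called outside MGC numbered 11, 3 with DESeq2, and 5 to 8 without 1 library, and members with an interaction numbered 1, and 0 to 1 without 1 library. Without 1 library, log2 fold changes ran from -0.65 to 0.062 for Tmem119 (positive without D2 library 2), from -0.044 to 0.16 for Cx3cr1 and from -0.25 to 0.41 for Tyrobp (both negative without D2 library 3), none of them called. A strain left with 1 library is assumed to vary like the other. The cause was not tested.

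With the library number as a replicate block, 876 genes and 2 members were called in MGC, 10 pairs outside it and 0 member peaks. Deviations of same-numbered MGC libraries correlated at -0.0856 over 8272 genes, and the block changed no call of a member in MGC. Whether same-numbered libraries were prepared together is not given in the sources used here, and this correlation cannot settle it. Depth limits C3, whose level is bounded only from above, and the peaks, with few counts each.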
